A study of Mus musculus with 144 samples.

Results

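Histone genes were followed in mouse liver by 3′ mRNA sequencing with QuantSeq, a method that primes on the poly(A) tail and reads the transcript end next to it. The genes are the 78 rows of the gene count table, of 51912, whose symbol begins with Hist1h, Hist2h, Hist3h or Hist4h or is H3f3a, H3f3b, H2afz, H2afy, H2afx, H2afv, H1f0 or H1fx. The first kind holds 70 genes, called clustered here by symbol alone, of which 56 have a Hist1h symbol, 10 Hist2h, 3 Hist3h and 1 Hist4h. The other kind holds 8 replacement and variant genes. The libraries form 4 series of 36, made from wild-type liver as total, nuclear or polysomal RNA, or from liver labelled Bmal1-/- as total RNA. All animals were male C57BL/6J mice kept in 12 h light and 12 h dark with free access to food, and each series has 6 libraries per time of sampling, which was ZT2, 6, 10, 14, 18 or 22 (zeitgeber time, counted in h from lights on). Nuclei were purified from frozen liver through a sucrose cushion, and polysomes by a sucrose gradient in the presence of cycloheximide. The labels give neither the animals' age, nor the deleted part of Bmal1 and the cells that lack it, nor whether replicate libraries come from separate animals.

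Histone mRNAs come in 2 classes that differ at their 3′ end. Replication-dependent histone genes, which lie in clusters and lack introns, make mRNAs that end in a stem-loop in place of a poly(A) tail. The stem-loop is bound by SLBP, the end is cut by a complex guided by U7 snRNA, and the mRNAs are made in S phase and destroyed when DNA synthesis stops. Most replacement and variant histones are made throughout the cell cycle from ordinary polyadenylated mRNAs. Examples are H3.3 from H3f3a and H3f3b, and H2A.Z from H2afz and H2afv. In adult liver, where most hepatocytes do not divide, some clustered genes are also known to give polyadenylated transcripts from a poly(A) signal past the stem-loop. A poly(A)-primed library therefore sees the polyadenylated mRNAs of the variants. Of the clustered genes it sees only transcripts that carry a tail or an internal run of A. BMAL1 is the activator subunit of the circadian clock, whose loss stops most daily rhythms of transcript levels in liver.

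The start regions of the genes with the widest daily rhythm are shown, with that of the H3.3 gene H3f3b, a replacement gene, for comparison. Each window is 300 bases, from 250 before to 50 after the start in the RefSeq table of GRCm38.p6, written 5′ to 3′ on the gene's strand. The table held such a window for 16 of the 21 histone genes named below. Capitals mark matches, on either strand, to the CCAAT box, written CCAAT, to the TATA box, written TATAAA, to ATTTGCAT (the octamer of histone H2B promoters), to CACGTG (the E-box bound by CLOCK and BMAL1), to AAACACA (an element of H1 promoters) or to TTATGTAA (a D-box, bound by DBP).
Hist2h3c1, chr3:96246435-96246734, plus strand: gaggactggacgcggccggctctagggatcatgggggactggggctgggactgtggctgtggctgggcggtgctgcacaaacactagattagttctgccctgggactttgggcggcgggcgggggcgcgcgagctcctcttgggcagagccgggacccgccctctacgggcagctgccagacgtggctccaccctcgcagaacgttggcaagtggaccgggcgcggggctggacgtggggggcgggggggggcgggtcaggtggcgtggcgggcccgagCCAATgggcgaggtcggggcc
Hist2h3c2, chr3:96239078-96239377, minus strand: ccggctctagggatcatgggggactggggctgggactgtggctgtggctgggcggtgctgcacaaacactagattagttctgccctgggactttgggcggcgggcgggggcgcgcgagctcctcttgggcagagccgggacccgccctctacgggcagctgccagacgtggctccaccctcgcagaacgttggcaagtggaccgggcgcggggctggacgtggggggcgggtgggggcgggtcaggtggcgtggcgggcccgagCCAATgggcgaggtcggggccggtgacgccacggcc
Hist1h4i, chr13:22041313-22041612, minus strand: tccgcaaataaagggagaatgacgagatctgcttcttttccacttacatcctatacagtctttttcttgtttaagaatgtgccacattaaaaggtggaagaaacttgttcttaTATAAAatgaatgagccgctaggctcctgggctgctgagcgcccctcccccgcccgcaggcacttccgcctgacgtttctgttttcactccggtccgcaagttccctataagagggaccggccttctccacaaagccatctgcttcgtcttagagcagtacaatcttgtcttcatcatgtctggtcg
Hist1h1c, chr13:23738557-23738856, plus strand: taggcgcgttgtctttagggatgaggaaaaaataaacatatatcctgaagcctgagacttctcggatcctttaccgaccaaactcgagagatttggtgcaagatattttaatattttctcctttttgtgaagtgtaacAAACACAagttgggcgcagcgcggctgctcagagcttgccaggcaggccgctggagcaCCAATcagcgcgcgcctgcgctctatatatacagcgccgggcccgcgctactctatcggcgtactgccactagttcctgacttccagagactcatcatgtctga
H3f3b, chr11:116024455-116024754, minus strand: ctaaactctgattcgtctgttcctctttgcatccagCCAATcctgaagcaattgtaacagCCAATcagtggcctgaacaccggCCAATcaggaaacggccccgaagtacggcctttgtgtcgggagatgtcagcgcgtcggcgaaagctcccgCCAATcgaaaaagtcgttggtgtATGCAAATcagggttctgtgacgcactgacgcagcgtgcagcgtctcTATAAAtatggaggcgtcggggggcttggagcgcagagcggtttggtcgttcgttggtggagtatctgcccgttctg

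The windows of Hist2h3c1 and Hist2h3c2 were the same sequence at 284 of 285 overlapping bases (99.6%), shifted by 15 bases, so these genes are near-identical copies and how their counts were split between them is uncertain. Hist2h2aa2 and its neighbour Hist2h2aa1 are known as a duplicated pair; their sequences were not compared here, and the split of their counts is uncertain too. CCAAT was found in the windows of 11 of the 16 genes, against 37.4% of the 32851 windows in the RefSeq table. TATAAA was found in 4 (13.6% of all windows) and ATTTGCAT in 3, namely H3f3b, Hist3h2a and Hist2h2ac (1.74%). AAACACA was found in Hist1h1c, Hist1h1e and H3f3a (7.18%), with the match on the gene's own strand in both H1 genes. CACGTG occurred in 1 window, that of H2afz (7.15%), and TTATGTAA in 1, that of Hist2h2aa2 (0.938%). These matches describe letters in the windows shown and say nothing of binding.

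Most clustered histone genes gave few or no counts. Library depth in gene counts was 5316601 to 9831142 for wild-type total RNA, 1662449 to 6620128 for nuclear RNA, 2578048 to 13068044 for polysomal RNA and 4379549 to 14281894 for the libraries labelled Bmal1-/-. At these depths 75 of the 78 genes had at least 1 count, while Hist1h2aa, Hist1h2aj and Hist1h3g had none in any library. A mean of 10 counts per library in at least 1 series was reached by 20 genes, 13 of the 70 clustered genes and 7 of the 8 variants. H1fx was the variant below it, with a mean of 0.944 counts in wild-type total RNA. Another 39 genes, all of them clustered, averaged under 1 count in every series. The 20 genes were 5 of 20 clustered H2A genes, 2 of 19 H2B, 2 of 12 H3, 2 of 13 H4 and 2 of 6 H1 genes, all 4 H2A variants, both H3.3 genes and the linker gene H1f0. The 5 H2A genes include Hist1h2al, which matches a transcribed pseudogene in RefSeq.

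Levels are given as CPM, gene counts scaled to the same library total. Together the histone genes took 698 ± 95.1 CPM in wild-type total RNA (SD, n = 36 in each series), 552 ± 71.96 in nuclear RNA, 984 ± 147 in polysomal RNA and 699 ± 52.1 in Bmal1-/- total RNA. CPM is a share of each library, so a difference between fractions is one of share and not of amount per cell, and in bulk tissue fewer cells of a type and less RNA per cell cannot be told apart. The 70 clustered genes and the 8 variants took similar sums in wild-type total RNA, 349 CPM each. In polysomal RNA the variants took 606 CPM and the clustered genes 378 CPM. A 3′ tag is counted once per transcript whatever its length, so these CPM were not divided by length. Hist1h2bc, an H2B gene, held 27.7% of all histone counts in wild-type total RNA, ahead of H3f3b with 14.4%, H2afv with 13.3% and H2afy, which encodes macroH2A1, with 11.8%. In nuclear RNA the leading genes were H2afy with 20.2% and Hist2h2aa2, an H2A gene, with 14.6%.

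Arntl, the symbol of Bmal1, was counted higher in the libraries labelled Bmal1-/- than in wild-type total RNA, with means of 11.5 ± 2.98 and 6.73 ± 5.40 CPM (SD, n = 36). A 3′ tag can lie outside the deleted part, so this count checks nothing. Dbp and Nr1d1, targets of BMAL1, had edgeR log2 changes of -1.76 (SE 0.17, adjusted p 1.04e-13) and -3.39 (SE 0.25, adjusted p 1.78e-18). The nuclear RNA Neat1 changed by 3.06 (SE 0.14) in nuclear and by -4.27 (SE 0.15) in polysomal RNA on the log2 scale. Hepatocyte markers were the most abundant marker list in each series, with median sums between 42899 and 78801 CPM, and no marker of any list was at 0 throughout a series. One library, wild-type total ZT2 replicate 4, stood apart in several histone genes: it held 532.1 CPM of Hist1h2bc, against at most 248.6 CPM in the other 35, and 0 of Hist2h3c2. Calls that were lost without it, and the rhythm of Hist1h2bc, are given with and without it.

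**Figure D1:**
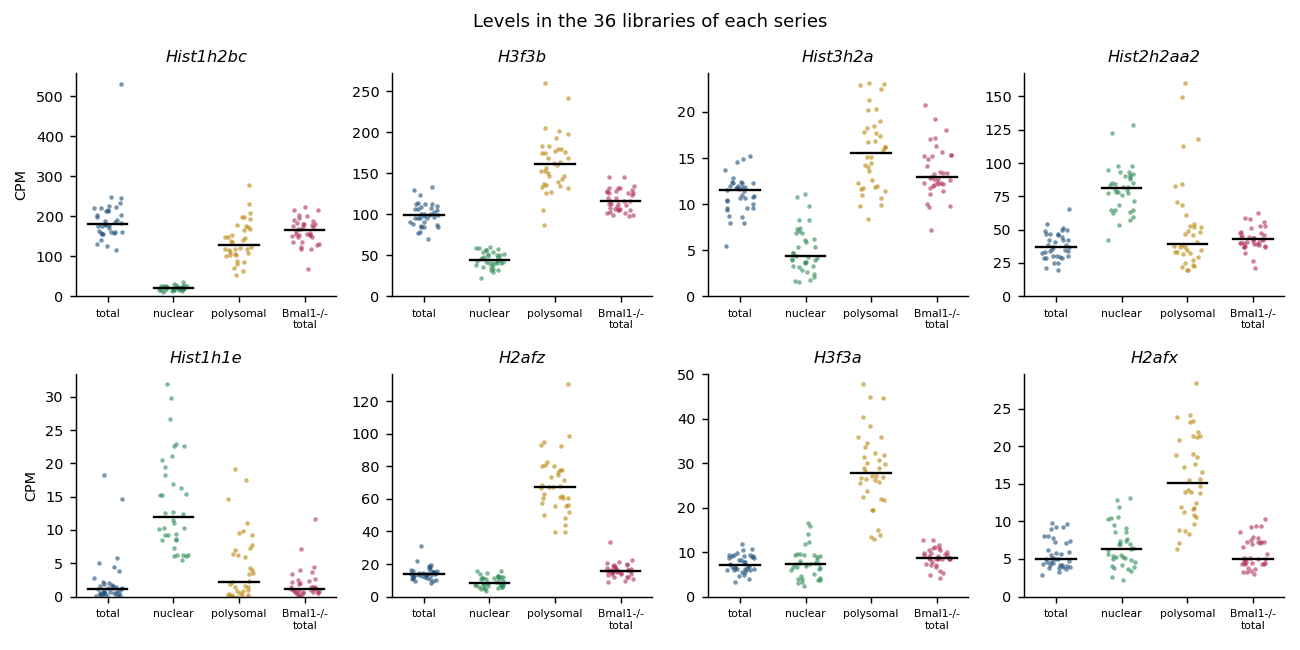
CPM (y axis, from 0) of 8 histone genes in every library, by series (x axis); each point is 1 library, n = 36 per series, and bars are medians. Nuclear points of Hist1h2bc and H3f3b lie below all points of total RNA, and polysomal points of H2afz and H3f3a lie above all of them.

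In the comparison of nuclear with total RNA, the H2B gene Hist1h2bc and the H3.3 gene H3f3b took a smaller share of nuclear RNA. An H1 gene, 4 H2A genes by symbol and 2 H4 genes were among those that took a larger one. The 4 include Hist1h2al, which matches a pseudogene. Among the 20 tested histone genes, 8 were higher and 7 lower in nuclear RNA (edgeR's quasi-likelihood test, Benjamini-Hochberg adjusted p under 0.05), where 41.6% of the 11864 genes tested were higher and 42.1% lower. The median log2 change was 0.14 over the 20 genes and -0.0069 over all genes. Genes were tested from a mean of 10 counts per library over both series, so the count describes genes that passed that filter. Both shares were close to those over all genes, and 7 of the 15 changes were 2-fold or more. The share of all genes with a called change of 2-fold is not given here, so the 7 are not read as a trait of histone genes.

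Hist1h2bc, the leading histone gene of total RNA, was the gene most depleted from nuclear RNA. It ranged from 116 CPM through a median of 182 to 532 CPM in total RNA and from 10.01 through 20.7 to 35.1 CPM in nuclear RNA. The ranges did not overlap, its mean was lower at all 6 times, and it was 9.49-fold lower (log2 -3.25, SE 0.09, adjusted p 3.46e-44). H3f3b, the more abundant H3.3 gene, ranged from 70.0 through 99.1 to 134 CPM in total RNA and from 22.7 through 44.0 to 60.2 CPM in nuclear RNA, again without overlap (log2 -1.22, SE 0.05, adjusted p 2.17e-32). Hist3h2a, a clustered H2A gene, ranged from 5.45 through 11.5 to 15.2 CPM in total and from 1.57 through 4.34 to 11.1 CPM in nuclear RNA. Its ranges overlapped, although 23 of 36 nuclear libraries were below every total RNA library (log2 -1.21, SE 0.11, adjusted p 3.65e-16). The other genes that were lower in nuclear RNA were Hist2h2be (log2 -0.88), Hist2h3c1 (-0.75), H2afz (-0.73) and H2afv (-0.66), with adjusted p between 9.24e-16 and 1.27e-05.

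Hist1h1e, a clustered H1 gene, ranged from 0.120 through 1.16 to 18.2 CPM in total RNA and from 5.43 through 11.9 to 31.9 CPM in nuclear RNA. The ranges overlapped, with 10 of 36 nuclear libraries above every total RNA library, and it was 7.48-fold higher (log2 2.90, SE 0.29, adjusted p 5.49e-14). In total RNA its mean was 0.805 CPM over replicates 1 to 3 but 3.67 CPM over replicates 4 to 6. Hist1h2ap, an H2A gene, had a median of 6.45 CPM in total and 17.5 CPM in nuclear RNA (log2 1.36, SE 0.14). Its symbol matches more than 1 RefSeq gene, so no position is given. Hist2h2aa2 had medians of 36.9 and 81.2 CPM (log2 1.04, SE 0.09, adjusted p 4.09e-18), with 27 of 36 nuclear libraries above every total RNA library. Hist2h2ac, a neighbouring H2A gene on chromosome 3, had medians of 1.25 and 3.19 CPM (log2 1.12, SE 0.19, adjusted p 1.75e-07). Smaller rises were called for Hist1h4h (log2 0.77), Hist1h2al (0.52), H2afy (0.40) and Hist1h4i (0.25, adjusted p 0.0476). The call of Hist1h4i was lost in 4 of 9 alternatives, with adjusted p from 0.0517 to 0.296 there, and that of Hist1h2al in replicates 4 to 6 alone (0.20, adjusted p 0.275). Hist1h2al matches a transcribed pseudogene in RefSeq, at chr13:51200084-51203066, outside the span of the other Hist1h genes. Its sites held up to 342% of its gene counts, so what its counts represent is uncertain.

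The linker genes did not move as a group. Hist1h1c, the H1 gene with the highest level, had medians of 38.4 CPM in total and 42.5 CPM in nuclear RNA, and H1f0 had medians of 49.2 and 53.5 CPM. Neither passed the test (log2 -0.13, 95% interval -0.35 to 0.10, and 0.12, -0.09 to 0.33). For H1f0 the means in total RNA were 35.4 CPM over replicates 1 to 3 but 62.0 CPM over replicates 4 to 6, and replicates 1 to 3 alone gave a log2 change of 0.44 (adjusted p 0.000499). H3f3a, the other H3.3 gene, had medians of 7.11 and 7.30 CPM and a log2 change of -0.06 (95% interval -0.28 to 0.16), beside -1.22 for H3f3b. Its polyadenylation sites held 87.1% of its gene counts in total but 46.4% in nuclear RNA, so these gene counts differ in origin. The site at chr1:180802690-180802728, with 87.3% of its site counts in total RNA, averaged 5.70 ± 1.88 CPM there. In nuclear RNA that site averaged 1.37 ± 1.03 CPM (SD, n = 36), a difference that was not tested.

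Beneath the filter, the 57 histone genes that are not named here summed to 5.36 ± 2.22 CPM in total RNA and 16.5 ± 10.51 CPM in nuclear RNA (SD, n = 36), which is 0.767% and 3.01% of histone counts. In polysomal and Bmal1-/- RNA the sums were 5.64 ± 2.81 and 5.10 ± 2.10 CPM. When genes were tested from a mean of 1 count, 15 further histone genes entered the nuclear comparison. A gene that is high in nuclear RNA can pass this filter through that series alone, which favours a call in that direction, so no count of calls over these genes is read as a result. Hist1h4b was counted at 1.29 ± 1.10 CPM in nuclear and 0.178 ± 0.205 CPM in total RNA (log2 2.53, SE 0.33), and Hist1h4c at 2.21 ± 1.962 and 0.344 ± 0.273 CPM (log2 2.41, SE 0.30). These genes were named after their values were seen, as the pair with the largest changes, and both averaged over 1 count in total RNA too (1.39 and 2.64). Even in nuclear RNA their means were 5.50 and 9.47 counts per library.

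**Figure D2:**
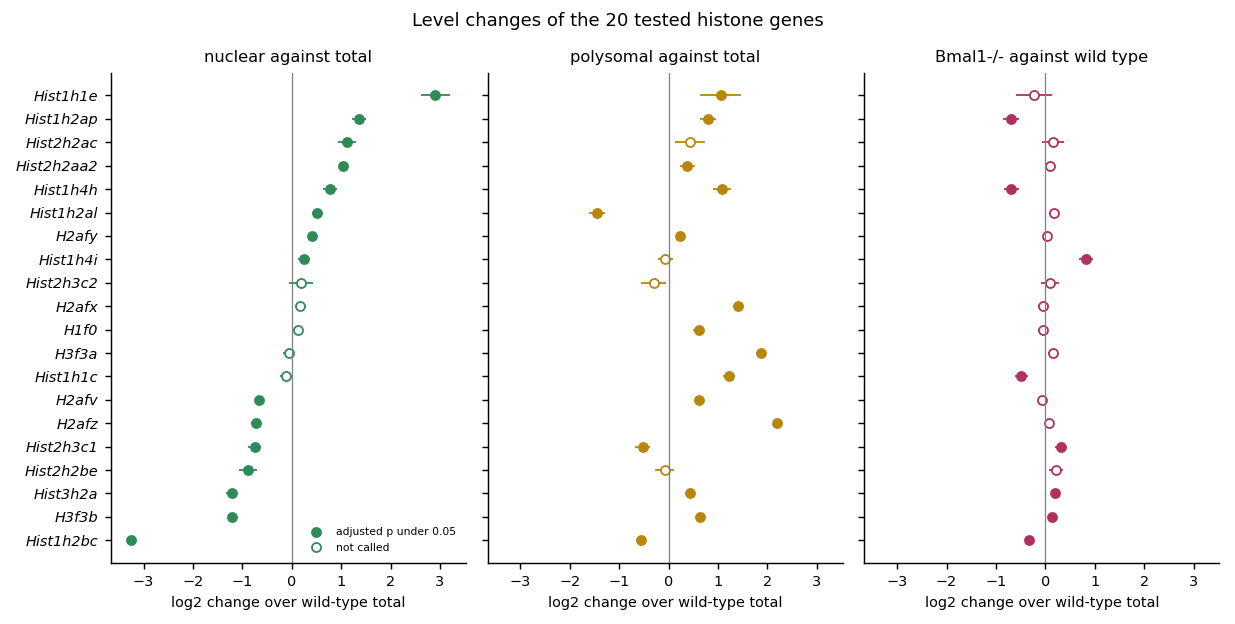
edgeR log2 change over wild-type total RNA (x axis) with its standard error for the 20 tested histone genes (rows, in the order of the nuclear change); filled points have an adjusted p under 0.05. Nuclear changes run from -3.25 for Hist1h2bc to 2.90 for Hist1h1e, the variants lie right of 0 in the polysomal panel, and no Bmal1-/- change reaches 1.

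Polysomal RNA, the mRNA bound by several ribosomes, was compared with total RNA. A higher level here is a larger share of the polysomal libraries, and not the part of a gene's mRNA under translation. Of the 20 histone genes tested, 13 were higher and 3 lower, where 38.4% of the 11556 genes tested were higher and 37.6% lower. The median log2 change was 0.52 over the 20 genes and 0.014 over all genes. All 7 variants tested were higher, and of the 13 clustered genes 6 were higher, 3 lower and 4 not called.

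H2afz, one of the H2A.Z genes, had the largest polysomal change of the 20. It ranged from 8.07 through 14.03 to 30.8 CPM in total RNA and from 39.4 through 67.4 to 131 CPM in polysomal RNA. No polysomal library overlapped the total RNA range, and it was 4.60-fold higher (log2 2.20, SE 0.09, adjusted p 1.04e-33). H3f3a ranged from 3.36 through 7.11 to 11.9 CPM in total RNA and from 13.0 through 27.7 to 47.9 CPM in polysomal RNA, also without overlap (log2 1.87, SE 0.11, adjusted p 6.51e-26). H2afx, the variant that is phosphorylated at DNA breaks, ranged from 2.93 through 5.02 to 9.76 CPM and from 6.27 through 15.1 to 28.4 CPM. Of its polysomal libraries, 30 of 36 were above every total RNA library (log2 1.40, SE 0.10, adjusted p 8.89e-21). The closely related genes H2afv and H3f3b changed less than H2afz and H3f3a, with log2 changes of 0.62 (SE 0.09) and 0.63 (SE 0.05). The difference between these pairs of genes was not tested. H2afv had a polysomal mean of 105 CPM over replicates 1 to 3 but 192 CPM over replicates 4 to 6, and its call was lost in replicates 1 to 3 alone (log2 0.14, adjusted p 0.201). H1f0 rose by 0.61 (SE 0.11, adjusted p 6.1e-07) on the log2 scale, and its call was lost in replicates 4 to 6 alone (0.21, adjusted p 0.0565). H2afy rose by 0.23 (SE 0.07, adjusted p 0.0018), a call lost without polysomal replicate 1 (0.08, adjusted p 0.218).

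Of the clustered genes, Hist1h1c had a median of 38.4 CPM in total and 109.8 CPM in polysomal RNA, with a range from 40.6 to 231 CPM (log2 1.23, SE 0.12, adjusted p 4.29e-15). Hist1h4h, an H4 gene, had medians of 2.86 and 6.11 CPM (log2 1.08, SE 0.17, adjusted p 9.02e-08). Hist1h1e had medians of 1.16 and 2.25 CPM (log2 1.06, SE 0.41, adjusted p 0.0177), a change lost in replicates 4 to 6 alone (0.50, adjusted p 0.417). Hist3h2a rose by 0.42 (SE 0.08) and Hist1h2ap by 0.80 (SE 0.17), the latter lost in replicates 4 to 6 (0.26, adjusted p 0.258). Hist2h2aa2 was called higher (log2 0.38, SE 0.15, adjusted p 0.0208), but its level followed 1 replicate number: polysomal replicate 1 averaged 115.7 CPM over the 6 times and replicates 2 to 6 averaged 39.8 CPM. Without polysomal replicate 1 its log2 change was -0.06 (adjusted p 0.589), and in replicates 4 to 6 alone it was -0.26 (adjusted p 0.0431).

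Hist1h2bc was lower in polysomal RNA, with a range from 53.5 through 128 to 277 CPM against 116 through 182 to 532 CPM in total RNA (log2 -0.57, SE 0.10, adjusted p 4.55e-07). It was thus lower in both fractions than in total RNA. Hist2h3c1, an H3 gene, fell by 0.53 (SE 0.16, adjusted p 0.00208) on the log2 scale, and it too was lower in both fractions. Hist1h2al fell by 1.45 (SE 0.16, adjusted p 1.83e-12), from a median of 23.9 to 7.43 CPM. Both fraction comparisons share the total RNA libraries. Red cell and blood markers also took a larger share of polysomal RNA, with a summed median of 8857 CPM (range 2157 to 20860) against 2593 CPM (548 to 13172) in total RNA. Of that list 4 of 7 were higher and 0 lower, beside 38.4% and 37.6% of all genes. Other lists were mostly lower: 5 of 8 hepatocyte markers (1 higher) and 5 of 9 Kupffer cell and macrophage markers (2 higher). So were 6 of 9 sinusoidal endothelial markers (1 higher) and 6 of 7 stellate cell markers tested (0 higher). Of the 2 lymphocyte and 2 cholangiocyte markers tested, 1 of each was lower and 0 higher. The part of all these markers in the histone values was not tested.

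Total RNA labelled Bmal1-/- was compared with wild-type total RNA over all times. Here 4 of the 20 histone genes were higher and 4 lower, where 21.7% of 12082 genes were higher and 22.4% lower, so the share of histone genes called was close to that of all genes. No change reached 2-fold. Hist1h4i, an H4 gene, had the largest change: it ranged from 0.752 through 3.02 to 7.02 CPM in wild type and from 1.57 through 6.53 to 13.7 CPM in Bmal1-/- (log2 0.82, SE 0.14, adjusted p 1.38e-06). Its mean was higher at all 6 times, 14 of 36 libraries lay above every wild-type library, and the call was lost in replicates 1 to 3 alone (0.44, adjusted p 0.0573). The other rises were in Hist2h3c1 (log2 0.31), Hist3h2a (0.18) and H3f3b (0.14), with adjusted p between 0.00451 and 0.0375. Calls were lost in replicates 4 to 6 alone for Hist2h3c1 (0.16, adjusted p 0.501) and Hist3h2a (0.13, adjusted p 0.347), in 1 fit of all series for both (adjusted p 0.0596 and 0.0906), and in replicates 1 to 3 alone for H3f3b (0.08, adjusted p 0.288). Falls were called for Hist1h2ap (-0.69), Hist1h4h (-0.69), Hist1h1c (-0.49) and Hist1h2bc (-0.33), with adjusted p between 0.000235 and 0.00124.

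These falls were uneven over the day and over replicates. Hist1h4h and Hist1h1c had lower means in Bmal1-/- at 4 of 6 times and higher means at the other 2. Hist1h1c averaged 38.1 CPM over wild-type replicates 1 to 3 but 58.3 CPM over replicates 4 to 6, while in Bmal1-/- the averages were 40.2 and 30.3 CPM. In replicates 1 to 3 alone its log2 change was 0.09 (adjusted p 0.68), and the calls of Hist1h2ap (-0.31, adjusted p 0.223) and Hist1h4h (-0.36, adjusted p 0.175) were lost. Of the 7 variants tested 6 did not pass the test. Among them H2afy had a log2 change of 0.03 (95% interval -0.03 to 0.09), H2afv of -0.07 (-0.17 to 0.02) and H1f0 of -0.05 (-0.25 to 0.16). Of the cell type lists, 8 of 9 Kupffer cell and macrophage markers were lower in Bmal1-/-, with summed medians of 263 CPM (116 to 570) against 330 CPM (165 to 1156). Red cell and blood markers were lower in 5 of 7, with summed medians of 1470 CPM (45.2 to 5496) against 2593 CPM (548 to 13172), and both lymphocyte markers tested were lower. Both cholangiocyte markers tested were higher, with summed medians of 73.7 CPM (46.1 to 136) against 25.7 CPM (16.2 to 67.1) over the 6 genes of the list. Over all genes 21.7% were higher and 22.4% lower. Of the other lists, 3 of 8 hepatocyte markers were higher and 1 lower. Of 9 sinusoidal endothelial markers 1 was higher and 4 lower, and of 7 stellate cell markers tested 2 were higher and 2 lower. The part of these cell types in the histone values was not tested.

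The 24 h rhythm of each gene was tested within each series, since the labels sample the day every 4 h. In wild-type total RNA, 10 of 20 histone genes were rhythmic at an adjusted p under 0.05, where 18.9% of 11964 genes were. The median fitted ratio of peak to trough was 1.46 over the 20 genes and 1.25 over all genes. Peaks of 9 of the 10 fell in the dark, between ZT12 and ZT24, against 52.0% of the 2260 rhythmic genes. Cholangiocyte markers also moved over the day in these libraries, with summed medians of 19.3 CPM at ZT10, 36.8 at ZT22 and 49.03 at ZT2, and Sox9 was rhythmic (ratio 2.91, peak ZT22.75). Their part in the histone rhythms was not tested.

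The H3 genes Hist2h3c1 and Hist2h3c2, whose start regions are shown above, had the widest rhythms. Hist2h3c1 was lowest at ZT10, with values from 0.503 through a median of 0.853 to 2.82 CPM in the 6 libraries, and highest at ZT18, with values from 7.12 through 10.6 to 12.4 CPM. In between, its medians were 4.74 CPM at ZT14, 7.19 at ZT22, 4.10 at ZT2 and 1.89 at ZT6. Every ZT18 library was above every library of ZT2, ZT6, ZT10 and ZT14. The fitted ratio was 7.27 with a peak at ZT19.9 (adjusted p 1.76e-09), and only 41 of all rhythmic genes had a ratio of 7 or more. Hist2h3c2 had medians of 0.491 CPM at ZT10 and 4.81 CPM at ZT18, a ratio of 7.33 and a peak at ZT20.2 (adjusted p 4.83e-06). Since these copies share almost all of the window shown, their rhythms cannot be counted as independent.

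The other rhythms called in wild-type total RNA had lower ratios. Hist1h4i had a ratio of 3.21 with a peak at ZT21.4 (adjusted p 4.81e-06), with medians of 1.98 CPM at ZT10 and 5.91 CPM at ZT18. Its ZT18 libraries, from 3.34 to 7.02 CPM, were all above its ZT10 libraries, from 1.89 to 2.97 CPM. Hist1h1c had a ratio of 2.79 with a peak at ZT21.7 (adjusted p 0.00158), with medians of 25.1 CPM at ZT10 and 70.9 CPM at ZT18. The ranges of those times, 13.5 to 46.7 and 37.7 to 109 CPM, overlapped. Hist2h2be, an H2B gene, peaked at ZT22.4 with a ratio of 2.01 (adjusted p 0.0241), and Hist1h4h at ZT22.1 with a ratio of 1.964 (adjusted p 0.0354). Hist1h2bc peaked at ZT23.9 with a ratio of 1.72 (adjusted p 0.00135), with medians between 157 CPM at ZT10 and 220.2 CPM at ZT22, and without wild-type total ZT2 replicate 4 the ratio was 1.48 (adjusted p 0.000399). Of the variants, H2afx peaked at ZT18.5 with a ratio of 1.81 (adjusted p 0.00726), with a median of 3.89 CPM at ZT6 and 7.57 CPM at ZT14. Hist3h2a peaked at ZT16.5 with a ratio of 1.33 (adjusted p 0.0309). H2afz was called with a peak at ZT0.33 and a ratio of 1.44 (adjusted p 0.0359), but without wild-type total ZT2 replicate 4, which held 30.8 CPM of it, the call was lost (ratio 1.297, adjusted p 0.0979). Several of these calls did not hold in subsets of the libraries. Hist2h2be, Hist1h4h and Hist3h2a were called neither in replicates 1 to 3 alone, nor in replicates 4 to 6 alone, nor in 1 fit of all series, with adjusted p from 0.0769 to 0.362. H2afx was called in neither subset (adjusted p 0.129 and 0.148), nor was H2afz (0.187 and 0.345), and Hist1h2bc was not called in replicates 4 to 6 (0.0964). The abundant variants H3f3b, H2afy and H1f0 were not called, with ratios of 1.19, 1.13 and 1.32.

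**Figure D3:**
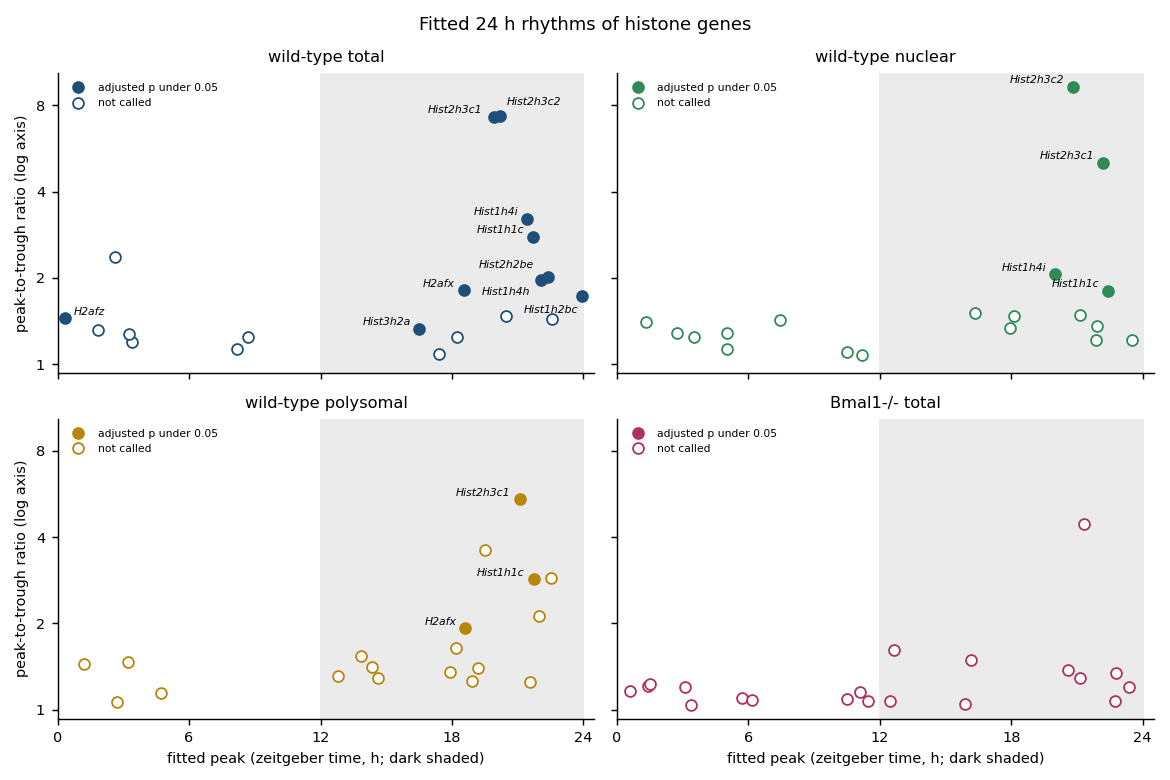
Fitted ratio of peak to trough (y axis, log scale) against fitted peak time (x axis, ZT in h, dark shaded) for the histone genes tested in each series; filled points have an adjusted p under 0.05. Filled points number 10 in wild-type total, 4 in nuclear, 3 in polysomal and 0 in Bmal1-/- RNA, and 16 of these 17 lie in the dark.

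The genes with the widest rhythms in total RNA were called rhythmic in nuclear RNA, and Hist2h3c1 and Hist1h1c also in polysomal RNA. In nuclear RNA 4 of 19 histone genes were rhythmic, where 5.99% of 11172 genes were: Hist2h3c2 (ratio 9.27, peak ZT20.8), Hist2h3c1 (5.05, ZT22.2), Hist1h4i (2.06, ZT20.0) and Hist1h1c (1.801, ZT22.4), with adjusted p between 3.03e-05 and 0.0211. Hist1h4i and Hist1h1c were called neither in nuclear replicates 1 to 3 alone (adjusted p 0.835 and 0.227), where the H3 genes were too low to be tested, nor in replicates 4 to 6 alone (0.0685 and 0.195), where the H3 genes were called. Nuclear medians of Hist2h3c1 were 0.849 CPM at ZT10 and 4.50 CPM at ZT18. In polysomal RNA 3 of 19 were rhythmic, where 7.9% of 10691 genes were: Hist2h3c1 (5.42, ZT21.1, adjusted p 0.00202), Hist1h1c (2.85, ZT21.7, adjusted p 1.02e-05) and H2afx (1.92, ZT18.6, adjusted p 0.0186). Hist2h3c1 and H2afx were called in neither replicates 1 to 3 nor replicates 4 to 6 of polysomal RNA. Hist1h4i did not pass the test there (ratio 2.13, adjusted p 0.166), and Hist2h3c2 was too low to be tested. Polysomal medians of Hist1h1c were 61.3 CPM at ZT10 and 171 CPM at ZT18, and all 6 libraries at ZT2, from 142 to 178 CPM, were above all 6 at ZT10, from 40.6 to 97.0 CPM. No difference in rhythm from total RNA was called in either fraction for any of the 20 genes by the interaction test (0 called among the histone genes and 0% of 11864 and of 11556 genes in edgeR's test). That fit did not pair the libraries, and the lack of calls does not show that the rhythms were the same. At an unadjusted p under 0.05 there was 1 in each fraction, Hist2h3c1 in nuclear RNA (p 0.000616, adjusted p 1) and H2afz in polysomal RNA (p 0.0105, adjusted p 0.631), both named after their values were seen.

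**Figure D4:**
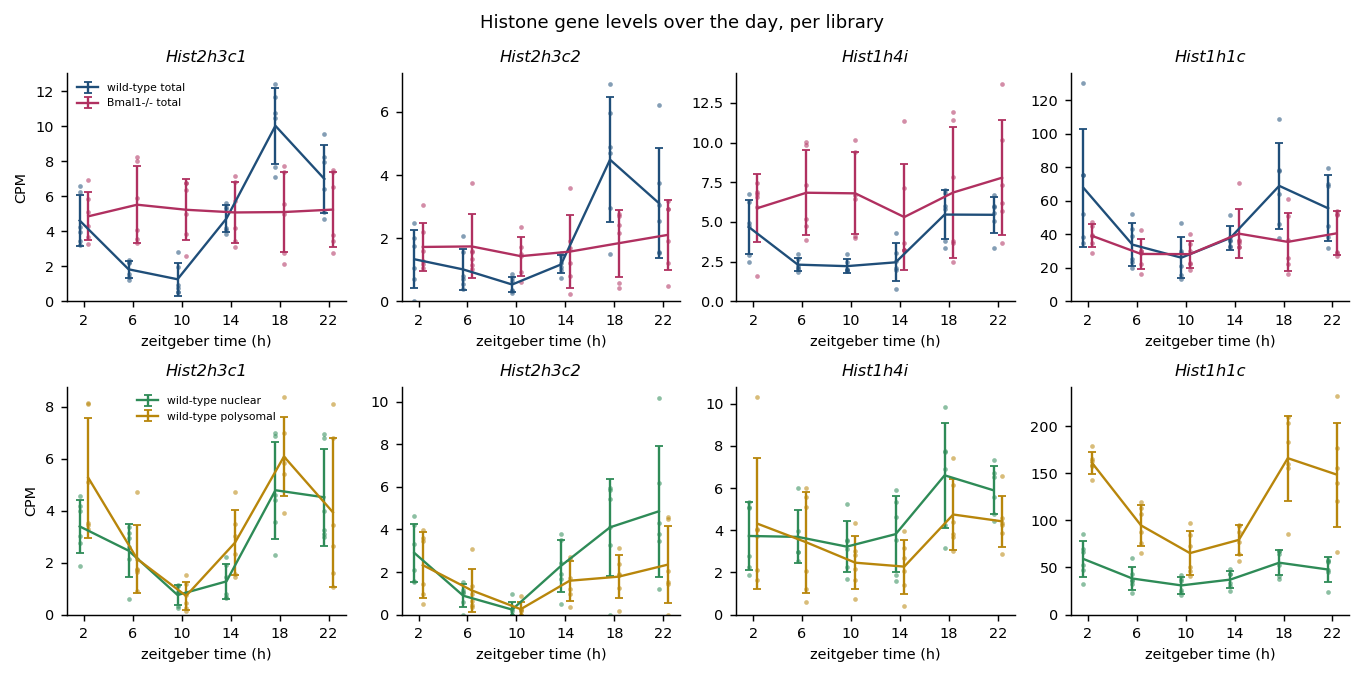
CPM (y axis, from 0) against zeitgeber time (x axis, h) of Hist2h3c1, Hist2h3c2, Hist1h4i and Hist1h1c, in wild-type and Bmal1-/- total RNA (top) and in nuclear and polysomal RNA (bottom); points are libraries, lines join means and bars are SD, n = 6. In wild type Hist2h3c1 goes from a mean of 1.26 CPM at ZT10 to 10.02 CPM at ZT18, while its Bmal1-/- means lie between 4.85 and 5.51 CPM.

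In the libraries labelled Bmal1-/- 0 of 20 histone genes were rhythmic by edgeR's test at an adjusted p under 0.05. Of all 12126 genes 0.00825% were, that is 1 gene. At an unadjusted p under 0.05 there were 2 histone genes. The difference in rhythm itself was called for 3 of 20 histone genes, where 5.11% of 12082 genes were called. At an unadjusted p under 0.05 there were 8. The share of all genes at the unadjusted threshold is not given here, so neither unadjusted count is set against these shares. The 3 were Hist2h3c1 (adjusted p of the interaction 6.19e-08), Hist2h3c2 (0.00469) and Hist1h4i (0.0234). In Bmal1-/-, Hist2h3c1 had medians of 4.70, 4.98, 5.68, 4.95, 5.29 and 5.18 CPM from ZT2 to ZT22, and its 36 libraries ran from 2.14 to 8.24 CPM. These medians lie between the wild-type trough of 0.853 CPM and peak of 10.6 CPM. Hist2h3c2 had Bmal1-/- medians between 1.43 and 2.41 CPM. Hist1h4i had Bmal1-/- medians between 3.45 CPM at ZT14 and 6.76 CPM at ZT22, and they were above the wild-type medians at 5 of 6 times, the exception being ZT18 with 5.82 CPM in Bmal1-/- and 5.91 CPM in wild type. Hist2h3c1 was called in replicates 1 to 3 alone (0.00179) and in replicates 4 to 6 alone (0.00164), the other 2 genes in neither. For the remaining rhythmic genes of wild type, among them Hist1h1c (adjusted p 0.199) and Hist1h2bc (0.0973), the difference did not pass the test.

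The polyadenylation site table was used to see which transcript ends these counts come from. Sites were given to a gene when they lay in it or up to 2000 bp past its end in RefSeq. In wild-type total RNA the sites held 100% of the gene counts of Hist1h2bc, 99.0% of H2afz, 98.0% of H2afv, 97.5% of H3f3b, 90.5% of Hist2h3c1 and 88.2% of Hist1h4i. They held 14.1% for Hist1h1e, 4.33% for Hist2h2aa2 and 0 for Hist1h1c and Hist1h4h, whose counts therefore came from outside the listed sites. For the latter genes the data do not show whether reads began at a poly(A) tail. The window of Hist2h2aa2 also takes in its neighbour Hist2h3c2, at chr3:96238479-96239127, so its 4.33% may belong to that gene. In H3f3a the sites held 87.1% of gene counts in total RNA and 46.4% in nuclear RNA.

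Of 19 histone gene sites tested for a rhythm in wild-type total RNA, 4 in 4 genes were rhythmic, where 11.1% of 19479 sites were. The site of Hist2h3c1 lies at chr3:96248400-96248512 on the plus strand (RefSeq GRCm38.p6 annotation), past the annotated gene end. It had medians of 0.740 CPM at ZT10 and 9.42 CPM at ZT18, a ratio of 7.56 and a peak at ZT20.0 (adjusted p 3.13e-08). It was also called in replicates 1 to 3 and in replicates 4 to 6. A site of Hist1h4i at chr13:22040618-22040688 on the minus strand had a ratio of 3.88 and a peak at ZT22.4 (adjusted p 4.19e-05). The site of Hist1h2bc at chr13:23692178-23692492 (ratio 1.73, adjusted p 0.00232) and that of H2afx at chr9:44336015-44336081 (ratio 1.71, adjusted p 0.0264) were the other pair. The calls of the Hist1h4i and Hist1h2bc sites were lost in replicates 4 to 6 (adjusted p 0.0551 and 0.127) and that of the H2afx site in both subsets (0.231 and 0.363). Without wild-type total ZT2 replicate 4 the ratio of the Hist1h2bc site was 1.496 (adjusted p 0.000575). The Hist1h2bc site spans the end of the long gene model, and it held 99.9% of the gene's site counts.

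In genes with several sites, proximal ends of H3f3b and H2afy were used more in nuclear RNA. Usage is a site's share of its gene's site counts, and 12 sites of H3f3b, H2afy, H1f0 and H2afz were tested. In nuclear RNA 8 of the 12 differed, 3 higher and 5 lower, where 78.7% of 12038 sites differed. In H3f3b the most proximal site tested, chr11:116023344-116023476, ranged from 8.68 through 14.3 to 18.9% in total RNA and from 17.1 through 31.4 to 58.3% in nuclear RNA. The mean was 14.2 ± 2.63% and 30.9 ± 8.51% (SD, n = 36; log2 1.11, SE 0.08, adjusted p 2.57e-20). The most distal H3f3b site tested, chr11:116022285-116022533, fell from 55.4 ± 5.12% to 39.2 ± 8.62% (log2 -0.49, adjusted p 8.42e-13). The next tested site downstream of the proximal one, chr11:116023171-116023295, fell from 11.7 ± 3.19% to 4.09 ± 3.01%. H2afy showed the same order: its proximal site at chr13:56074165-56074371 was used at 54.6 ± 10.2% in total and 77.2 ± 7.46% in nuclear RNA (log2 0.50, adjusted p 4.47e-09). Its distal site at chr13:56073619-56073803 was used at 44.4 ± 9.75% and 22.1 ± 7.48% (log2 -1.001, adjusted p 2.27e-14). In H1f0 the most distal tested site went the other way, with 63.6 ± 10.3% in total and 70.9 ± 10.4% in nuclear RNA (log2 0.16, adjusted p 0.00622), lost in replicates 1 to 3 alone (0.04, adjusted p 0.661). The H1f0 site at chr15:79030308-79030354 fell from 9.15 ± 7.07% to 5.38 ± 4.02% (log2 -0.77, SE 0.27, adjusted p 0.00805), a call lost in 1 alternative. The most proximal tested H1f0 site was not called (log2 -0.21, adjusted p 0.0884). The proximal H2afz site, chr3:137866819-137866828, fell from 7.37 ± 3.66% to 3.58 ± 4.10% (log2 -1.19, adjusted p 0.000154).

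**Figure D5:**
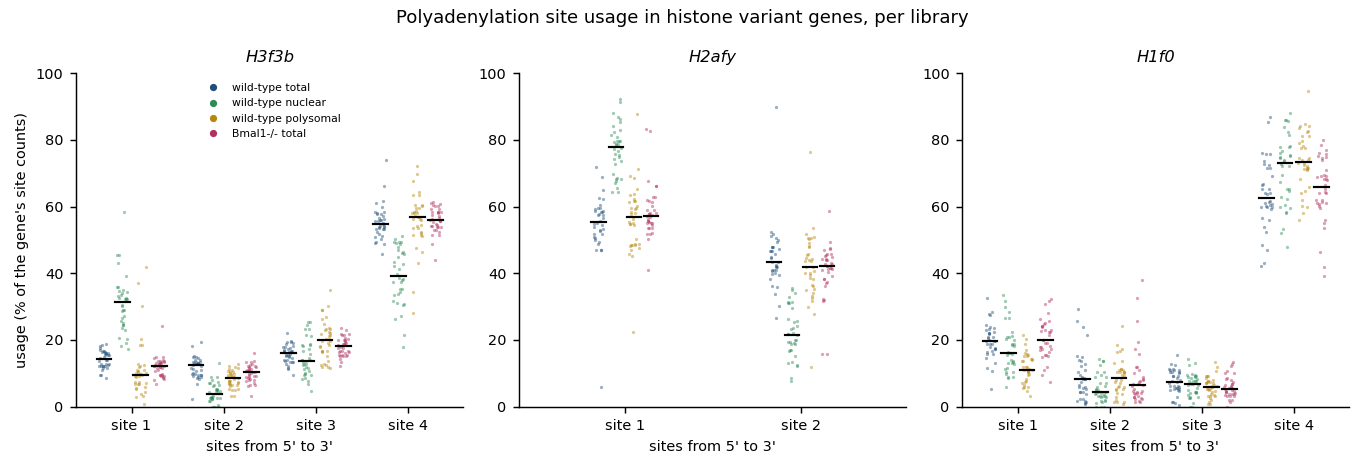
Usage (y axis, % of the gene's site counts) of the tested sites of H3f3b, H2afy and H1f0 (x axis, 5′ to 3′ on the gene's strand) in every library; points are libraries, n = 36 per series, and bars are medians. Nuclear points of site 1 stand above the other series by their medians in H3f3b and H2afy, with overlapping ranges, and the medians of the last site shown stand lower.

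In polysomal RNA 5 of 10 sites differed from total RNA, 2 higher and 3 lower, where 70.4% of 12751 sites differed. The proximal H1f0 site, chr15:79029233-79029443, fell from 19.7 ± 5.26% to 11.6 ± 4.42% (log2 -0.79, adjusted p 1.36e-08), and its most distal site rose from 63.6 ± 10.3% to 73.7 ± 8.66% (log2 0.21, adjusted p 0.000131). In H3f3b the site at chr11:116022961-116023060 rose from 15.8 ± 2.69% to 20.1 ± 5.69% (adjusted p 0.000149), while the sites at chr11:116023171-116023295 and chr11:116023344-116023476 fell to 8.29 ± 2.49% and 11.3 ± 8.84%. The latter had an adjusted p of 0.0452, and in replicates 1 to 3 alone its log2 change was 0.005 (adjusted p 0.991). In Bmal1-/- RNA 2 of 12 sites differed, both in H3f3b, where 8.95% of 13595 sites differed. The site at chr11:116022961-116023060 was used at 17.997 ± 2.78% against 15.8 ± 2.69% in wild type (adjusted p 0.0377), and the proximal site at 11.9 ± 3.01% against 14.2 ± 2.63% (adjusted p 0.019). The first of these was lost without wild-type total ZT2 replicate 4 (adjusted p 0.0526), and both were lost in replicates 1 to 3 alone.

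The factors that form and remove histone mRNA ends were followed as a list of 27 genes, of which 25 were tested. In nuclear RNA 8 were higher and 13 lower, where 41.6% and 42.1% of all genes were, with a median log2 change of -0.22 beside -0.0069 over all genes. Slbp, whose product binds the stem-loop, had the largest rise, from 1.87 to 11.2 CPM (log2 2.47, SE 0.13, adjusted p 1.28e-28), followed by Sympk, a scaffold of the cleavage complex (1.95). The largest falls were in Xrn2, a nuclear exonuclease (-1.66), Npat, the activator of histone transcription (-1.29), and Zcchc6, which adds U to histone mRNA ends (-1.20). In polysomal RNA 7 were higher and 15 lower, where 38.4% and 37.6% of all genes were (median -0.60 beside 0.014). Lsm10, a subunit of the U7 particle, rose by 1.65 on the log2 scale, and Zcchc6 and the endonuclease gene Cpsf3 fell by 1.495 and 1.297. In Bmal1-/- 7 were higher and 0 lower, where 21.7% and 22.4% of all genes were. The 7 include Lsm11, the partner of Lsm10 in the U7 particle (log2 0.56, adjusted p 1.37e-06). Slbp itself had a log2 change of -0.01 (SE 0.12) there. Of the 25, 8 were rhythmic in wild-type total RNA, where 18.9% of all genes were, with ratios from 1.25 to 1.79, among them Lsm11 (1.68, peak ZT22.8) and Zcchc11 (1.79, peak ZT9.07).

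Of the 25 histone chaperone and deposition genes tested in nuclear RNA 6 were higher and 16 lower, beside 41.6% and 42.1% of all genes. Cabin1, a subunit of the H3.3 chaperone complex HIRA, rose by 1.60 on the log2 scale, and Srcap, which exchanges H2A.Z into chromatin, by 1.45. Npm1 fell by 3.21 and Hat1, which acetylates new H4, by 1.62. In polysomal RNA 6 of 26 were higher and 16 lower, beside 38.4% and 37.6% of all genes, with the largest falls in Ep400 (-1.88) and the H3.3 partner Atrx (-1.86). In Bmal1-/- 4 were higher, Npm1 among them (log2 0.52, SE 0.07), and 1 lower, beside 21.7% and 22.4% of all genes. Of the 26, 5 were rhythmic in wild-type total RNA, a share close to the 18.9% of all genes, with ratios between 1.25 and 1.46.

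Genes of the cell cycle and DNA replication were counted at low levels. The 30 genes summed to a median of 107 CPM in wild-type total RNA (range 89.1 to 190.4), 102 in nuclear, 143.6 in polysomal and 105 in Bmal1-/- RNA. Over the day the wild-type medians lay between 103 CPM at ZT6 and 111 CPM at ZT14, and 2 of 18 genes tested were rhythmic, beside 18.9% of all genes: Ccne2 (ratio 2.76, peak ZT15.4) and Mcm7 (1.57, ZT23.8). In Bmal1-/- 4 of 18 were higher and 6 lower, beside 21.7% and 22.4% of all genes, the largest falls being in Rrm2, a subunit of ribonucleotide reductase (log2 -1.55, SE 0.23, adjusted p 3.62e-08), and E2f1 (-1.02, SE 0.15, adjusted p 2.46e-08). The part of these genes in the histone values was not tested.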

How the data were processed

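QuantSeq 3′ libraries of 4 series with 36 libraries each were used as raw counts. The authors deposited whole-number counts per gene symbol and per polyadenylation site, unpooled, and per the submitters' processing notes STAR 2.4.2a, edgeR, HOMER and the builds mm10 and GRCm38.p5 were used. Their roles, the gene annotation and the strand setting of the counting are not given in the sources used here. Near-identical and overlapping genes therefore have uncertain counts. Sample titles matched all columns. Within groups, 0 of 360 library pairs were identical, with a chi-square per degree of freedom of at least 4.026. Nothing says that replicates come from separate animals, so p-values measure the spread between these samples, which may be technical.

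Counts were TMM-normalized and tested in R 4.3.3 with edgeR 4.0.16 (robust quasi-likelihood F tests, Benjamini-Hochberg adjustment over all features tested, threshold 0.05), for genes whose counts averaged 10 or more over the libraries fitted. CPM uses the raw library total, so a CPM ratio can differ from a fitted fold. Level comparisons weighted the 6 time points equally, rhythms were tested as a 24 h cosine and sine per series and different rhythms as the interaction. Usage was tested on site counts, offset by the log of all site counts of that gene plus 0.5, for sites with at least 5% of a gene with 2 or more such sites and at least 50 counts. The code was tested on simulated data.

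Named are the 8 variants and the clustered genes averaging 10 or more counts in a series, in full where a change of 2-fold or a rhythm was called, and of other lists the genes called at 2-fold, at most 4 each way. The members and lists were chosen with earlier results of these data known. Alternatives were median-ratio size factors, DESeq2 1.42.0, a filter of 1 count, replicates 1 to 3 or 4 to 6 only, single replicates left out, a replicate block and 1 fit of all series. Leaving out wild-type total ZT2 replicate 4, and the site rhythms, were added after the data were seen.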

Additional observations from a re-analysis of the deposited data

Results flagged for a closer look

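The rhythm of 3 histone genes in Bmal1-/- was unlike that in wild-type total RNA by the interaction test of edgeR, with adjusted p of 6.19e-08 for Hist2h3c1, 0.00469 for Hist2h3c2 and 0.0234 for Hist1h4i. Hist2h3c1 and Hist2h3c2 are near-identical copies. Their levels by time are given with the rhythm results.

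Single libraries lay far from the other 5 of their group in 14 of 132 groups of 6 libraries examined. The groups, by time, were those of the 10 rhythmic genes in wild-type total RNA and of Hist2h3c1, Hist2h3c2, Hist1h4i and Hist1h1c in the other series. For independent, normally distributed values chance alone flags about 1 in 20 groups. These CPM were not shown to be such and include near-identical copies, so the 14 are not set against that rate. In wild-type total RNA these were Hist1h2bc at ZT2 replicate 4 (532.1 CPM) and Hist3h2a in the same library (5.455 CPM), Hist1h1c at ZT14 replicate 5 (51.39 CPM), and Hist2h2be at ZT10 replicate 5 (2.89 CPM) and ZT22 replicate 5 (8.494 CPM). In nuclear RNA they were Hist2h3c2 at ZT10 replicate 3 (0.9493 CPM) and Hist1h1c at ZT22 replicate 3 (23.55 CPM). In polysomal RNA they were Hist2h3c1 and Hist2h3c2 at ZT6 replicate 3 (4.714 and 3.074 CPM), Hist2h3c2 at ZT10 replicate 4 (0.8644 CPM) and Hist1h4i at ZT2 replicate 5 (10.32 CPM). In Bmal1-/- RNA they were Hist2h3c2 at ZT6 replicate 6 (3.761 CPM), Hist1h4i at ZT2 replicate 1 (1.569 CPM) and Hist1h1c at ZT14 replicate 1 (70.33 CPM). The library was the highest of its group in 11 cases and the lowest in 3.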

How the results depend on the processing

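Of the counts of histone genes or sites recomputed under the alternatives, 76 were within 1.5 times the reported count and 15 were not. With genes tested from a mean of 1 count, 27 of 35 histone genes were called in nuclear RNA in place of 15 of 20. Over all genes 78.6% of 17081 were called with that filter, a share close to that of the histone genes. A gene that is high in nuclear RNA can also pass this filter through that series alone. Using only replicates 1 to 3 or 4 to 6 reduced rhythmic genes from 10 to 6 or 4 in wild-type total RNA, from 4 to 0 or 2 in nuclear and from 3 to 1 or 1 in polysomal RNA, and genes with a different rhythm in Bmal1-/- from 3 to 1 or 1, with fewer libraries in each fit. The same subsets gave 0 and 4 differing sites in Bmal1-/- in place of 2, and leaving out wild-type total ZT2 replicate 4, chosen after seeing the data, gave 1. In 1 fit of all series 6 genes were rhythmic in wild-type total and 7 in polysomal RNA. The shares of all genes in these subsets and in this fit are not given here. These counts therefore show only how far the calls held. The cause was not tested. Of results for single genes or sites, 665 held direction and call, 54 lost the call, 9 gained one and 4 reversed: Hist2h2aa2 in polysomal RNA (-0.26 in replicates 4 to 6, -0.061 without polysomal replicate 1, against 0.38 as reported and 0.36 without wild-type total ZT2 replicate 4), Hist1h1c in Bmal1-/- (0.094 in replicates 1 to 3) and the proximal H3f3b site in polysomal RNA (0.00501 in replicates 1 to 3).

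Same-numbered libraries of a time tended to deviate together in total and nuclear RNA (mean r 0.35, 34 of 36 pairs over 0.1, 29 of 36 best with their own number), a hint from the data and not from the labels. Between wild-type and Bmal1-/- total RNA the tendency was weaker (mean r 0.077, 18 over 0.1, 13 best among 6 candidates each). Between total and polysomal RNA there was none (mean r -0.13, 1 over 0.1, 0 best). Since 2 total and nuclear pairs were under 0.1 and the labels name no shared animal or batch, the numbers were not taken to pair the samples. With the replicate block 6 genes were rhythmic in polysomal RNA in place of 3, 12 in wild-type total RNA in place of 10, and 8 sites in place of 4. It gave 16, 15 and 8 genes called for level in nuclear, polysomal and Bmal1-/- RNA, the nuclear gain being H1f0 (log2 0.17, adjusted p 0.0414), and 0 different rhythms in either fraction. The shares of all genes under the block are not given here, so its counts are not read as a result about histone genes. Depth limits most members: 39 averaged under 1 count in every series and 19 between 1 and 10, so none of these passed the filter of 10 counts. With the filter of 1 count 15 of them entered the nuclear, 10 the polysomal and 11 the Bmal1-/- comparison. The others were not tested.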
